A study of Mus musculus with 56 samples.

Results

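The genes described here are 10 genes of intestinal epithelium and of microfold cells: *Vil1*, *Cdhr2*, *Cdhr5*, *Aoc1*, *Hnf4a*, *Hnf4g*, *Fcgbp*, *Spib*, *Gp2* and *Tnfaip2*. They were taken from a list of names and found by Ensembl gene identifier among the 50600 genes quantified, and all 10 were found. The list was chosen by measured values. *Aoc1* and *Cdhr5* fall in cortical thymic epithelial cells (cTECs) after birth, and *Fcgbp* is an abundant transcript of medullary thymic epithelial cells (mTECs). The comparison of D6 with D-2 in cTECs and the mTEC level of *Fcgbp* are therefore given as descriptions with no test. The comparison of mTECs with cTECs includes the cTEC samples of D6 and D-2. RNA was sequenced from cTECs (EpCAM+ CD45- UEA1-) and mTECs (EpCAM+ CD45- UEA1+) sorted from thymi of adult B6.SJL females, in 56 samples, 28 per cell type. Apart from the non-pregnant controls (NPC), the females had been mated with BALB/cJ males, and pups were removed at birth. D-2 is 2 days before parturition, D0 the day of parturition, and D1 to D28 are days after it. Of each cell type there were 3 samples at D-2, D0, D3, D6, D12 and of NPC, and 1 at each of the other 10 time points, and a sample came from 1 mouse. In this bulk RNA, fewer cells of a type and less RNA per cell cannot be told apart.

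Medullary TECs express genes of many peripheral tissues, which exposes developing thymocytes to tissue antigens. Some mTECs, called mimetic cells, carry a large part of the program of a peripheral cell type, among them an enterocyte-like program driven by the nuclear receptors HNF4α and HNF4γ and a microfold program that depends on SpiB. In the intestine, enterocytes carry a brush border of microvilli, goblet cells secrete mucus, and microfold cells take up bacteria from the lumen over lymphoid follicles.

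The sequence just upstream of a start site is where such factors could bind, so the 250 bases upstream of the RefSeq start site (GRCm38.p6, each on the strand of its gene) are shown for *Vil1*, *Cdhr2*, *Cdhr5* and *Aoc1*, the microvillus genes and the enzyme gene, in which matches to the motifs searched were found. Capitals mark matches, on either strand, to CAAAGTC (an HNF4 motif), CAAAGGT (a motif of nuclear receptors that bind direct repeats), GAGGAA (the PU-box that SpiB and PU.1 share) and AGAACA (a steroid receptor motif).
Vil1, chr1:74409134-74409383, plus strand: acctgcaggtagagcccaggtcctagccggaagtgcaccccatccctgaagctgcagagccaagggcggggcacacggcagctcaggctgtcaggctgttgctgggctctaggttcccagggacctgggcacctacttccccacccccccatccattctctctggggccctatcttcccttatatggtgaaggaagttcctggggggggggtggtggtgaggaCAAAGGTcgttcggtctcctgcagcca
Cdhr2, chr13:54701213-54701462, plus strand: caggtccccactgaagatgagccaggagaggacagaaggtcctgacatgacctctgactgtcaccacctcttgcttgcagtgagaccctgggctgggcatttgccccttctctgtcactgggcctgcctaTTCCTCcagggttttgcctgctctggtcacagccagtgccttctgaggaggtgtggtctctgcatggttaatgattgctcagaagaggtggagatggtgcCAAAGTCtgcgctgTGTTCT
Cdhr5, chr7:141276787-141277036, minus strand: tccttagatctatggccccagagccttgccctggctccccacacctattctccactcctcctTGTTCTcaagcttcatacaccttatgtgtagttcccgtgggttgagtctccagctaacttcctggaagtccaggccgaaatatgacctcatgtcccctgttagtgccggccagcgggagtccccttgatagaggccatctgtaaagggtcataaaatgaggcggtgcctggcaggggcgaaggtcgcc
Aoc1, chr6:48904736-48904985, plus strand: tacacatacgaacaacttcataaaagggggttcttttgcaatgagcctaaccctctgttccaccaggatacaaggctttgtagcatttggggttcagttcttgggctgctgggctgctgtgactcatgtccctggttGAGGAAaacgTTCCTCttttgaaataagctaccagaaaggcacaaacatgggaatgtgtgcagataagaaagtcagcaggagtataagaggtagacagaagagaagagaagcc

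In *Cdhr2*, CAAAGTC lies 20 to 14 bases before the start site, and 3.8% of 32817 upstream windows of this length hold it. In *Vil1*, CAAAGGT lies 27 to 21 bases before the start site, a motif held by 3.5% of all windows. That motif was added after the *Vil1* window had been read. RefSeq gives *Aoc1* a pair of start sites, and the window of the other, chr6:48895005-48895254, holds no match. The *Aoc1* window shown holds GAGGAA on each strand, 113 to 108 and 103 to 98 bases before its start site, and 23.3% of all windows hold this motif. *Cdhr2* holds 1 match to it, 120 to 115 bases before its start site on the opposite strand. AGAACA, held by 16.1% of all windows, lies 188 to 183 bases before the start site of *Cdhr5* and 6 to 1 bases before that of *Cdhr2*. These are matches of letters in windows of DNA, and binding was not measured here.

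Levels are given as FPKM, the fragments of a gene scaled by its effective length and by the size of the library, as RSEM reports them for each sample. Differences are log2 fold changes from limma-voom on the estimated counts with their standard error (SE), and a gene is called changed where it differs by 2-fold or more with a p of 0.01 or less after Benjamini-Hochberg adjustment over all genes tested. Total counts ranged from 6470058 to 44409019 per cTEC sample and from 4561208 to 108547384 per mTEC sample. Samples matched their cell type labels, with 7 of 7 cTEC markers called higher in cTECs and 8 of 9 mTEC markers called higher in mTECs, yet the summed FPKM of the mTEC markers was still 3687.5 to 8109.2 in cTEC samples against 10667.7 to 20114.4 in mTEC samples. 4 libraries stood apart, with a median correlation with their cell type below 0.82: 1 cTEC sample and 1 mTEC sample of D3, 1 mTEC sample of D0 and the cTEC sample of D20. Values without them are given for genes in mTECs against cTECs and in the late against the early phase, and for some correlations between listed genes. The means and ranks over 28 samples, the order of time points and the search for the most correlated genes include them.

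The 10 genes spanned more than 3 orders of magnitude in level. In mTECs the mean FPKM over 28 samples was 3379 for *Fcgbp* (rank 13 of all genes), 112 for *Spib*, 44.2 for *Tnfaip2*, 38.8 for *Gp2* and 28.6 for *Aoc1*. The cadherin genes and villin were lower, with 10.5 for *Cdhr5*, 6.08 for *Vil1* and 2.74 for *Cdhr2*, and the transcription factor genes were lowest, with 2.47 for *Hnf4g* and 1.28 for *Hnf4a*. In cTECs *Fcgbp* again led with a mean of 715 (rank 134), followed by *Gp2* with 34.1, *Tnfaip2* with 24.2, *Spib* with 15.2, *Cdhr5* with 9.69 and *Aoc1* with 9.05. *Vil1* (2.67), *Cdhr2* (2.64) and *Hnf4g* (1.57) were low in cTECs, and *Hnf4a*, at a mean of 0.248, was under the 0.5 FPKM that a gene needed to be tested there.

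**Figure D1:**
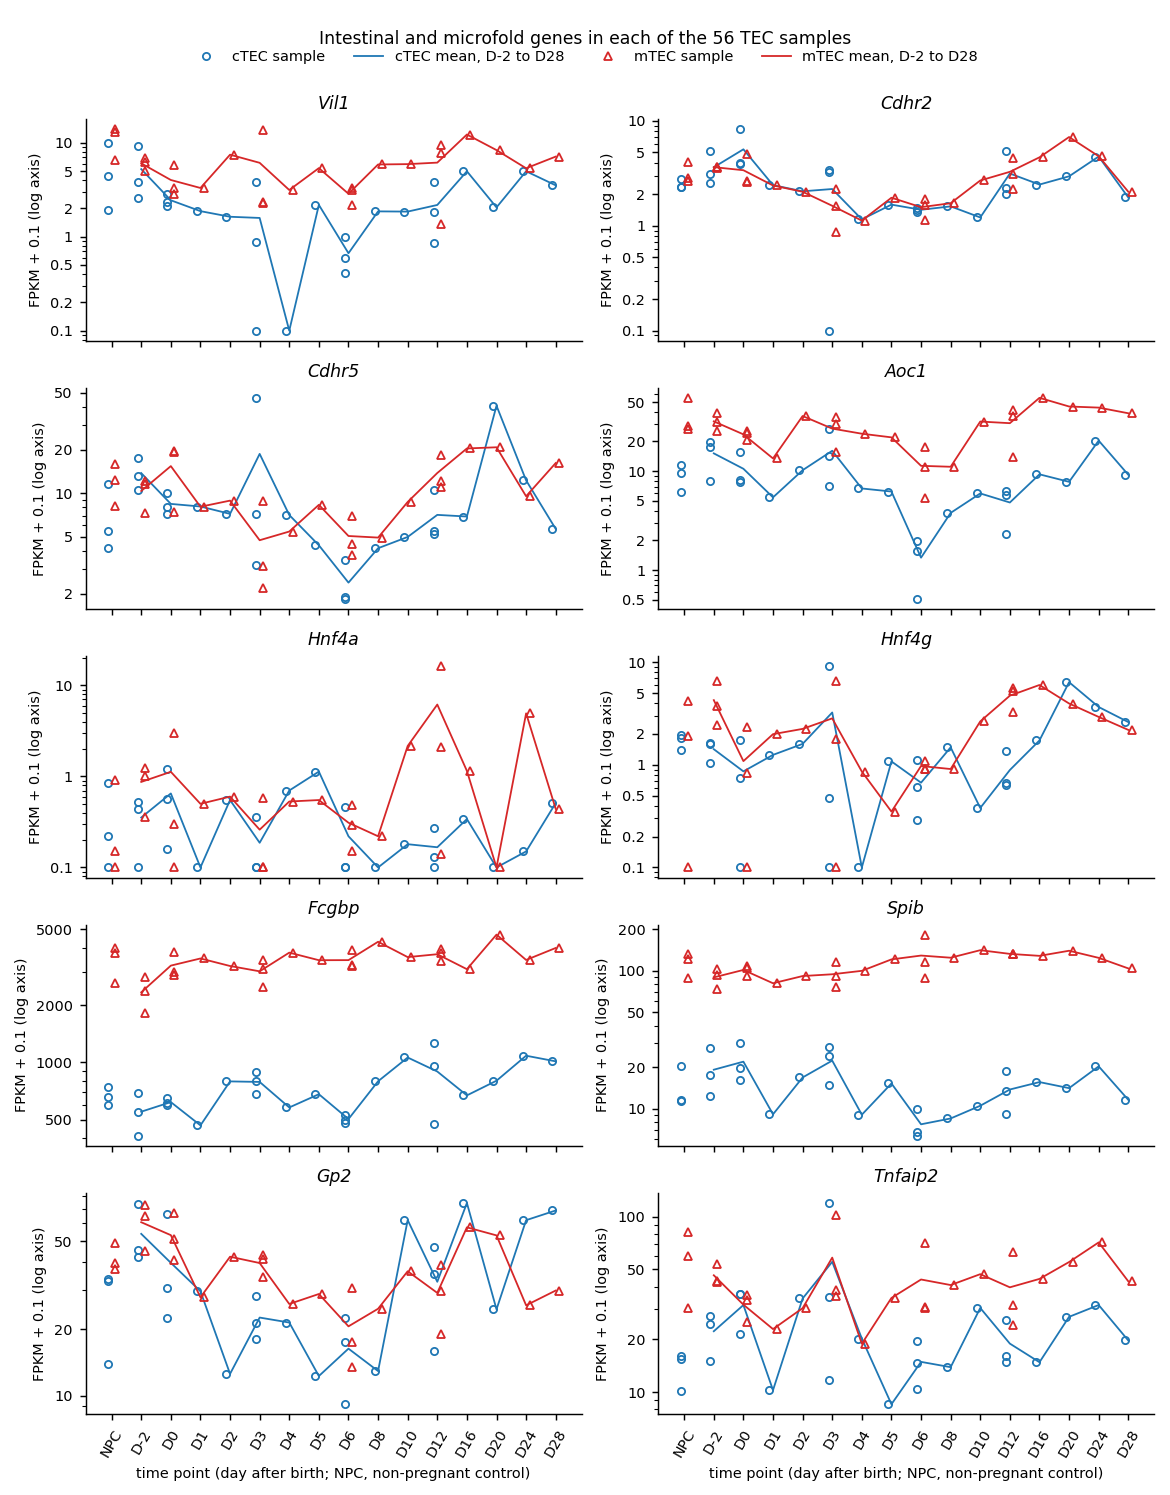
FPKM + 0.1 on a log axis for each of the 10 genes in every sample, by time point, with cTEC samples as blue circles, mTEC samples as red triangles and lines through the means from D-2 to D28. *Fcgbp* and *Spib* keep the cell types apart in every sample, whereas *Cdhr2* and *Gp2* overlap at most time points, and *Aoc1* in cTECs reaches its lowest values, 0.41 to 1.85 FPKM, at D6.

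Whether these genes belong to mTECs was asked with the 36 samples of the 6 replicated time points. *Spib*, *Vil1* and *Tnfaip2* were called higher in mTECs than in cTECs. *Aoc1* passed the same thresholds, which makes 4 of the 9 genes other than *Fcgbp*. Over all 18394 genes tested, 12.3% were called higher and 17.0% in either direction. The median log2 fold change of all 10 genes was 1.05, against 0.00 for all genes. *Cdhr2*, *Cdhr5*, *Gp2*, *Hnf4a* and *Hnf4g* were not called, so the name of mTEC genes was borne out for part of the list only. The cTEC samples include the days on which *Aoc1* and *Cdhr5* were chosen for falling, so these 2 genes are given with no p. The call of *Aoc1* is therefore a description, and so is its part in the count of 4. The p-values of the other genes rest in part on the cTEC samples of D6 and D-2 too. They are not independent of the choice of the list.

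*Spib* (chr7:44525993-44532071, minus strand) encodes the ETS factor that microfold cell differentiation requires and that B cells and plasmacytoid dendritic cells also use. Its FPKM ran from 73.41 to 182.81 (median 111.3) in mTEC samples and from 6.26 to 29.85 (median 14.41) in cTEC samples. The cell types did not overlap in any sample, which held for 0.848% of all genes over the 36 samples tested. The log2 fold change of mTECs over cTECs was 2.92 (SE 0.13), 7.55-fold, with an adjusted p of 7.401e-18 by limma-voom. Other cells that can express *Spib* were also more visible in mTEC samples: 2 of 4 tested B cell markers were called higher there, although the CD45- gate would remove such cells, with a summed FPKM of 2.3 to 26.2 against 0.0 to 8.9 in cTECs. Plasmacytoid dendritic cell markers gave 199.9 to 495.9 in mTECs and 232.9 to 538.4 in cTECs, with 0 of 4 called. The part of these cells in the *Spib* level was not tested.

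*Aoc1* (chr6:48872896-48909188, plus strand) encodes diamine oxidase, which degrades histamine and is abundant in intestinal epithelium. It ranged from 5.27 to 55.08 FPKM (median 27.48) in mTECs and from 0.41 to 26.67 (median 7.73) in cTECs. The ranges overlapped, and the log2 fold change of mTECs over cTECs was 2.13 (SE 0.29). *Vil1* (chr1:74409376-74435559, plus strand) encodes villin, the actin-bundling protein of microvilli. Its FPKM was 1.25 to 13.75 (median 5.76) in mTECs and 0.00 to 9.84 (median 1.99) in cTECs, with a log2 fold change of 1.98 (SE 0.37, adjusted p = 5.498e-05 by limma-voom). Without the libraries that stood apart the values were 2.13 for *Aoc1*, 1.64 for *Vil1*, 2.90 for *Spib* and 2.30 for *Fcgbp*. On the NPC samples alone only *Spib* was called of these 9 genes, with a log2 fold change of 2.96, while *Aoc1* gave 2.53 and *Vil1* 2.30, and *Hnf4a* and *Hnf4g* turned to -1.22 and -2.37.

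*Tnfaip2* (chr12:111442469-111455018, plus strand), which encodes M-Sec, a protein of membrane protrusions and a microfold cell marker, lay at the threshold. Its log2 fold change was 1.01 (SE 0.12, adjusted p = 1.795e-08 by limma-voom), and the call was lost at 0.99 by edgeR and at 0.99 by limma on log2(FPKM + 0.5). Leaving out 1 sample at a time gave 0.96 to 1.07, and leaving out the libraries that stood apart gave 1.085. Its FPKM is a poor guide between samples, because the effective length that RSEM assigned to it ran from 571 to 3687 bases in cTECs and from 986 to 3705 bases in mTECs. In the cTEC D3 sample that stood apart, a length of 571 bases turned 68.2 CPM (counts scaled to library size) into 119.3 FPKM, the highest of all samples. Across samples, the correlation of log FPKM with log CPM was 0.565 in cTECs and 0.631 in mTECs. In CPM the gene ran from 53.9 to 154.8 in mTECs and from 21.8 to 74.5 in cTECs, with some overlap. Macrophages, which the CD45- gate would remove, also express *Tnfaip2*, and 5 of 7 macrophage markers were called higher in mTECs, with a summed FPKM of 18.9 to 219.5 against 4.5 to 43.6 in cTECs. Their part in the *Tnfaip2* level was not tested.

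**Figure D2:**
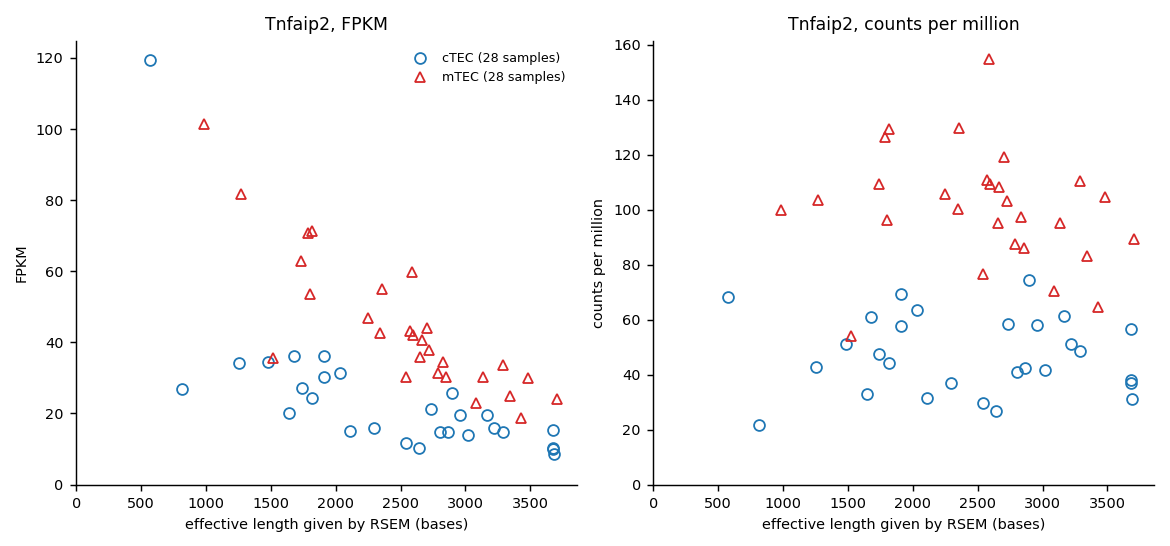
*Tnfaip2* in 28 cTEC samples (blue circles) and 28 mTEC samples (red triangles) against the effective length RSEM assigned in bases, as FPKM on the left and as CPM on the right. The highest FPKM values, such as 119.3 in a cTEC sample, sit at the shortest lengths, whereas CPM stay between 21.8 and 154.8 at all lengths.

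*Fcgbp* (chr7:28071236-28120862, plus strand) encodes a large mucus protein that goblet cells secrete. It ranged from 1828.58 to 4695.31 FPKM (median 3442) in mTECs and from 411.3 to 1257.74 (median 676) in cTECs, with no overlap, and the log2 fold change of mTECs over cTECs was 2.30 (SE 0.10). The mTEC level chose this gene, so no test is given. Relative to its mean it was the most even of the 10 genes in mTECs, with a SD of 620 around its mean of 3379 (n = 28).

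The 5 genes not called were *Gp2* (chr7:119442537-119459285, minus strand), the microfold receptor for FimH-bearing bacteria, the protocadherin genes *Cdhr2* (chr13:54701461-54736662, plus strand) and *Cdhr5* (chr7:141269083-141276786, minus strand), whose products link the tips of neighbouring microvilli, and the nuclear receptor genes *Hnf4a* (chr2:163506808-163572910, plus strand) and *Hnf4g* (chr3:3508030-3658052, plus strand). *Gp2* ran from 13.36 to 72.38 FPKM (median 38.07) in mTECs and from 9.07 to 74.12 (median 28.91) in cTECs. Its log2 fold change was 0.48 (SE 0.19, adjusted p = 0.040 by limma-voom), and 0.42 without the libraries that stood apart. *Cdhr5* gave 0.59 (SE 0.25) and 0.67 without those libraries, from 2.11 to 20.77 FPKM (median 8.74) in mTECs and from 1.74 to 45.94 (median 7) in cTECs. The cTEC range of *Gp2* reached as high as that of mTECs, and so did that of *Cdhr5*, through 2 libraries that stood apart (45.94 and 40.48), without which its highest cTEC value was 17.54. *Cdhr2* was at 0.78 to 6.91 FPKM (median 2.54) in mTECs and 0.00 to 8.18 (median 2.30) in cTECs, and its log2 fold change of 0.29 (SE 0.32) turned to -0.18 without the libraries that stood apart, to -0.14 by edgeR and to -0.04 by DESeq2. *Hnf4g* gave 0.49 (SE 0.75) and *Hnf4a* 1.09 (SE 0.78), both with errors too wide for a 2-fold difference to be detectable, and 0.91 and 1.25 without those libraries.

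*Hnf4a* was counted sparsely, with 0 to 311 estimated counts per mTEC sample and under 3 counts in 7 of 28 mTEC and 10 of 28 cTEC samples. Its highest FPKM, 16.14 in an mTEC sample of D12, came from 228 counts and an effective length of 997 bases, while the typical length was 4272 bases. *Hnf4a*, *Hnf4g*, *Vil1* and *Tnfaip2* each overlap another annotated gene (*Hnf4aos*, *Gm37000*, *Usp37* and *Gm40578* among them). The strand setting of the counting is not given in the sources used here, so reads of overlapping genes on opposite strands may not have been told apart.

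**Figure D3:**
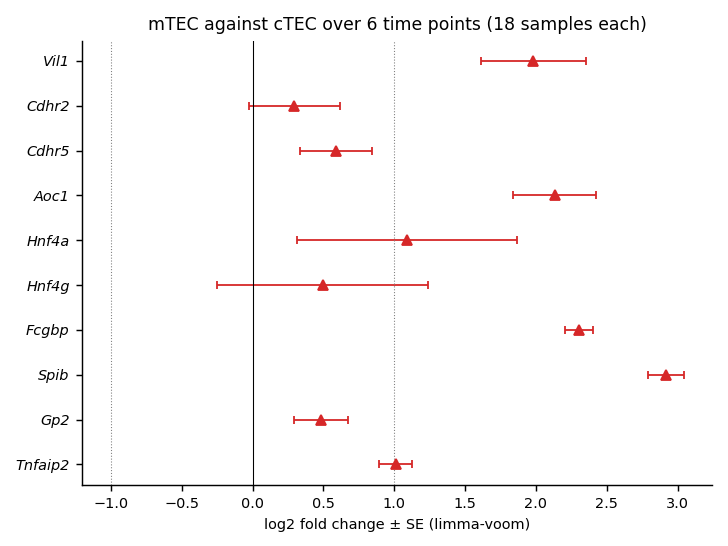
Log2 fold change of mTECs over cTECs with its SE for the 10 genes, from 18 samples of each cell type, with dotted lines at a fold change of 2 in each direction. *Spib* is highest at 2.92 with a SE of 0.13, and *Cdhr2*, *Hnf4a* and *Hnf4g* have the widest errors relative to their values.

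Other genes of the same programs were set beside these in lists chosen with earlier results of the data known. Of 18 further enterocyte and HNF4-related genes tested, 13 were called higher in mTECs and 0 lower, with a median log2 fold change of 3.05. Examples are *Krt20*, a keratin of differentiated enterocytes, at 4.56, *Alpi*, intestinal alkaline phosphatase, at 4.48 and the apolipoprotein gene *Apoa4* at 4.14. Of 10 brush border genes, 5 were called higher, among them *Myo1a*, the brush border myosin, at 4.29 and *Myo7b*, *Calml4* and *Anks4b*, which encode partners of *Cdhr2* and *Cdhr5* products in the tip-link complex, at 3.11, 2.79 and 1.85. Of 10 goblet cell genes tested, 6 were called higher, with *Clca1* at 3.84, the mucin gene *Muc2* at 3.60, *Zg16* at 3.32 and *Tff3* at 2.99. Of 12 microfold genes, 6 were called higher, with *Tnfrsf11b* at 4.46, *Ccl9* at 3.84, *Ccl20*, the chemokine that draws CCR6+ cells, at 3.38 and *Scg5* at 3.09. The medians of the brush border, goblet and microfold lists were 1.2, 2.02 and 1.14, and 0 genes of the 4 lists were called lower.

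The D6 samples were compared with those of D-2 to ask how the mTEC levels differed between the end of gestation and the first week after birth. In mTECs 0 of 10 genes were called by limma-voom between D6 and D-2, against 0.299% of 17743 genes tested. The unadjusted p was under 0.05 for 3596 of all genes. DESeq2 called 3 of the 10 lower, *Aoc1*, *Hnf4g* and *Gp2*, but it also called more of the 17743 genes, 464 in all and 367 of them lower. Voom with sample quality weights called *Aoc1* and *Gp2*, with 286 genes called in all and 227 of them lower. 8 of the 10 log2 fold changes were below 0, as for 48.5% of all genes. 5 were below by 2-fold or more, as for 14.6%. In 6 genes every D6 sample lay below every D-2 sample in FPKM, as for 12.9% of all genes. The median was -1.09, against 0.02 for all genes. Markers of other cells moved in the same mTEC samples. The summed FPKM of the cTEC markers was 741.7 to 1371.9 at D-2 and 2392.0 to 4589.5 at D6, with 6 of 7 above 0 and 1 called. That of the mTEC markers was 10667.7 to 17148.7 and 16008.8 to 19573.2, but their directions were mixed, with 6 of 9 above 0, 3 below and 0 called. *Cd80* had 5.6, 4.16 and 5.42 FPKM at D6 against a mean of 22.44 at D-2, and *Aire* had 115.83, 26.71 and 46.38 against 104.3. Thymocyte markers were above 0 in 9 of 9 (median 2.19, 0 called), and macrophage sums were 63.8 to 101.5 at D-2 and 18.9 to 62.2 at D6 (0 of 7 called). Their part in the values of the 10 genes was not tested.

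*Gp2* had 44.98, 72.38 and 64.68 FPKM at D-2 and 30.72, 17.42 and 13.36 at D6 in mTECs. All D6 samples were lower, with a log2 fold change of -1.48 (SE 0.27, adjusted p = 0.026 by limma-voom), which missed the 0.01 threshold. *Aoc1* had 25.16, 38.86 and 31.38 FPKM at D-2 and 17.44, 5.27 and 11 at D6, again without overlap, and a log2 fold change of -1.63 (SE 0.38, adjusted p = 0.059 by limma-voom). *Hnf4g* had 6.52, 3.62 and 2.37 FPKM at D-2 and 0.82, 0.98 and 0.82 at D6, at a log2 fold change of -1.73 (SE 0.71, adjusted p = 0.21 by limma-voom). In FPKM the microvillus genes did not overlap between the days either. *Cdhr2* was tight at D-2, with 3.56, 3.46 and 3.54, against 1.7, 1.48 and 1.03 FPKM at D6 (log2 fold change -1.22, SE 0.33). *Vil1* went from 6.12, 6.82 and 4.87 to 3.22, 2.05 and 3.02 FPKM (-1.34, SE 0.38), and *Cdhr5* from 7.14, 12.11 and 11.56 to 6.9, 4.31 and 3.63 (-0.96, SE 0.36). Adjusted p-values of these 3 genes by limma-voom were 0.088, 0.10 and 0.18. In CPM *Cdhr5* did overlap, with 13.411, 25.595 and 19.691 at D-2 and 14.292, 7.214 and 6.796 at D6.

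*Fcgbp*, *Spib*, *Tnfaip2* and *Hnf4a* did not share this pattern of D6 samples all below those of D-2. *Fcgbp* had 1828.58, 2359.42 and 2819.77 FPKM at D-2 and 3194.36, 3253.45 and 3897.44 at D6, all higher at D6, as for 10.9% of all genes. Its log2 fold change was 0.60 (SE 0.17, adjusted p = 0.10 by limma-voom). *Spib* gave 0.49 (SE 0.22), with 92.62, 102.32 and 73.41 FPKM at D-2 and 182.81, 88.8 and 114.97 at D6, which overlap. *Tnfaip2* gave -0.10 (SE 0.19) and *Hnf4a* -0.84 (SE 1.07), the latter on 39, 49 and 54 estimated counts at D-2 and 27, 12 and 1 at D6.

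In the context lists, 0 genes were called in mTECs at D6 against D-2. The enterocyte list had 17 of 18 values below 0 with a median of -1.25, and the goblet list 9 of 10 with a median of -2.53. The brush border list had 6 of 10 below 0 (median -0.29) and the microfold list 8 of 12 (median -0.21). *Muc13*, a transmembrane mucin, had 4.34 to 5.07 FPKM at D-2 and 0.92 to 1.38 at D6, and *Muc2* had 3.21 to 8.30 at D-2 and 0.20 to 1.60 at D6. Those 2 genes were named after their values were seen.

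**Figure D4:**
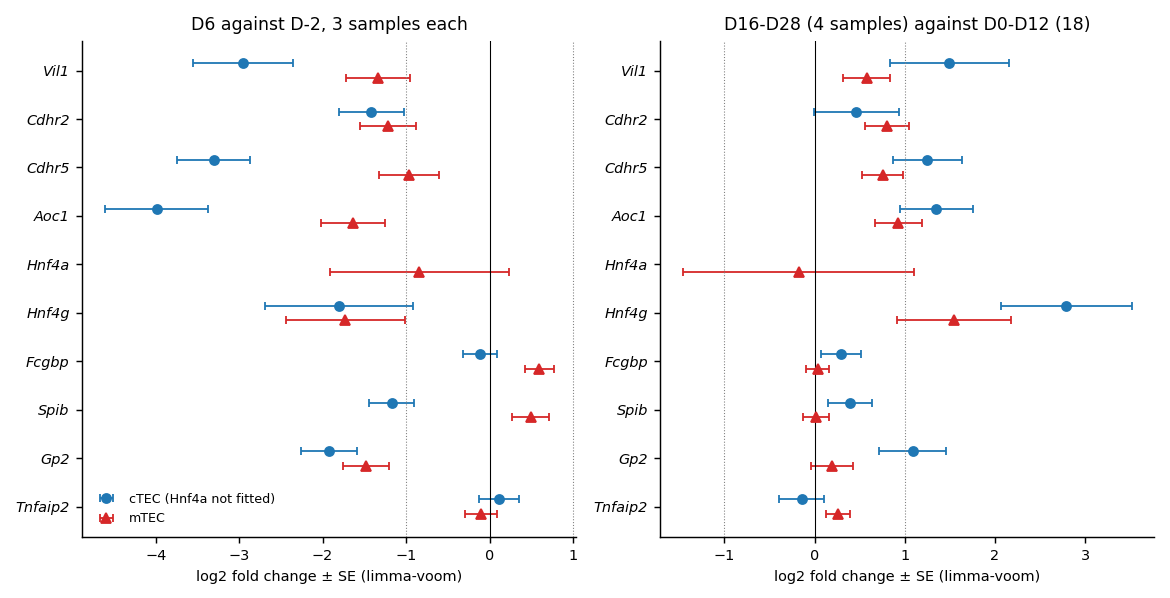
Log2 fold changes with their SE for D6 over D-2 (left, 3 samples each) and for D16 to D28 over D0 to D12 (right, 4 and 18 samples), in cTECs (blue circles) and mTECs (red triangles). Most values lie below 0 on the left and above 0 on the right, while *Fcgbp* and *Spib* in mTECs lie above 0 on the left, at 0.60 and 0.49, and near 0 on the right, at 0.04 and 0.02.

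In cTECs the same days were the basis on which the list was chosen, so the values are descriptions. Of the 9 genes fitted, 7 were lower at D6 by 2-fold or more, as were 17.6% of 15845 genes, and in 6 the D6 samples all lay below the D-2 samples, as for 12.3%. limma-voom called 1.34% of all genes in this comparison. The median log2 fold change was -1.80, against -0.03 for all genes. *Aoc1* had 7.81, 19.84 and 17.49 FPKM at D-2 and 1.45, 0.41 and 1.85 at D6, a 15.9-fold difference. *Cdhr5* had 17.54, 13.11 and 10.47 at D-2 and 1.74, 3.33 and 1.81 at D6. The highest of its D6 values rested on 56 counts and an effective length of 562 bases, and in CPM it was the lowest of the 3 samples. *Vil1* had 9.22, 3.73 and 2.46 FPKM at D-2 and 0.5, 0.31 and 0.89 at D6, with a log2 fold change of -2.96 (SE 0.60).

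*Gp2* (-1.93, SE 0.33), *Cdhr2* (-1.42, SE 0.39) and *Spib* (-1.18, SE 0.27) were also lower at D6 in every cTEC sample than in any sample of D-2. *Gp2* had 73.6, 42.22 and 45.46 FPKM at D-2 and 9.07, 17.38 and 22.27 at D6, and *Spib* had 17.35, 27.57 and 12.32 at D-2 and 6.26, 6.69 and 9.88 at D6. *Hnf4g* gave -1.81 (SE 0.89) with overlap. *Fcgbp* (-0.12, SE 0.21) and *Tnfaip2* (0.11, SE 0.24) differed by less than their SE.

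Marker genes moved in the same cTEC samples. The 7 cTEC markers were all higher at D6 than at D-2, 6 of them called, and their summed FPKM went from 1524.0 to 2609.5 at D-2 to 10956.2 to 12047.3 at D6. Of the 9 mTEC markers, 7 had log2 fold changes below 0 and 0 were called, and their summed FPKM went from 5798.6 to 8109.2 to 3687.5 to 4296.7. *Ccl21a*, the chemokine of medullary cells, had 3759.67 to 6266.78 FPKM at D-2 and 1753.26 to 2478.49 at D6, and *Krt14* had 252.96 to 538.2 and 149.36 to 243.32. *Aire* had 4.66 to 14.09 FPKM at D-2 and 0.81 to 3.41 at D6. The part of mTEC transcripts in the cTEC values of the 10 genes was not tested.

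**Figure D5:**
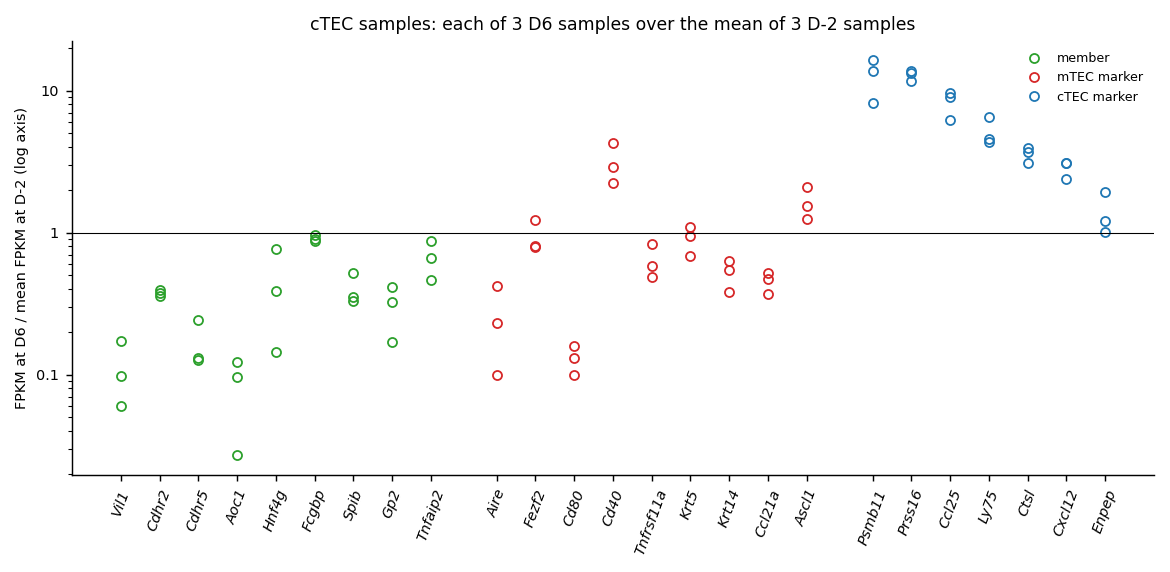
FPKM of each of the 3 cTEC samples of D6 divided by the mean FPKM of the 3 cTEC samples of D-2, on a log axis, for 9 of the 10 genes (green), 9 mTEC markers (red) and 7 cTEC markers (blue). *Aoc1*, *Vil1* and *Cdhr5* sit among the lowest ratios, next to *Aire* and *Cd80*, while *Fcgbp* lies close to 1 and the 7 cTEC markers lie above 1.

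Among the 6 replicated time points, the mean FPKM was lowest at D6 in 8 of 10 genes in cTECs, as for 17.8% of tested genes, and in 5 of 10 in mTECs, as for 15.5%. The cTEC count rests on samples that chose the list, so nothing is read from it. With the days of 1 sample included, D6 was lowest of 16 time points for 3 of 10 genes in cTECs (*Aoc1*, *Cdhr5* and *Spib*) and 2 in mTECs (*Vil1* and *Gp2*). *Fcgbp* and *Spib* were lowest at D-2 in mTECs and *Cdhr5* and *Hnf4a* at D3. In each cell type 3 of 50 neighbouring pairs in the order of means had samples without overlap in FPKM. Over all tested genes this held for 3.52% of such pairs in cTECs and 2.84% in mTECs. The pairs in cTECs were *Cdhr5* and *Aoc1* at D6 below D12 and *Cdhr5* at D0 below D-2. Those in mTECs were *Cdhr2* at D3 below NPC, *Cdhr5* at D6 below D-2 and *Aoc1* at D6 below D0. In CPM the *Cdhr5* pairs of D0 with D-2 in cTECs and of D6 with D-2 in mTECs overlapped.

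Between NPC and D-2, which asks about gestation itself, 0 of 9 genes were called in cTECs and 0 of 10 in mTECs. By limma-voom 0 of 15845 genes were called in cTECs and 0 of 17743 in mTECs (percent called 0 in both), with 1564 and 2267 genes at an unadjusted p under 0.05, and DESeq2 called 90 and 171, none of them on this list. In cTECs *Gp2* had 13.85, 33.47 and 32.99 FPKM in NPC against 73.6, 42.22 and 45.46 at D-2. All D-2 samples were higher, as for 6.54% of genes, with a log2 fold change of 1.11 (SE 0.34). *Vil1* gave 1.17 (SE 0.49), *Aoc1* 1.07 (SE 0.41) and *Cdhr5* 1.05 (SE 0.38), all with overlap in FPKM. In CPM *Vil1* had 3.931 to 5.507 in NPC and 7.483 to 12.712 at D-2, without overlap. *Cdhr5* had 6.859 to 16.357 and 18.833 to 24.057 CPM, also without overlap, while *Aoc1* overlapped in CPM too. The share of all genes without overlap in CPM is not given here. In the same samples the summed FPKM of the cTEC markers was 5659.3 to 7840.4 in NPC and 1524.0 to 2609.5 at D-2 (7 of 7 below 0, median -1.61). Thymocyte markers were below 0 in 10 of 10 and tuft cell markers above 0 in 6 of 6, and 0 genes of these lists were called. Their part in the values was not tested. The D-2 samples are those used for the comparison with D6, so these values are not independent of it. The cTEC samples of D-2 served to choose the list. The cTEC values and counts of listed genes called are therefore descriptions with no p. In mTECs the largest values, 3.16 (SE 1.71) for *Hnf4g* and 3.03 (SE 1.83) for *Hnf4a*, rested on an NPC sample at 0 counts of each gene, and *Gp2* gave 0.62 (SE 0.23). The median over the 10 genes was 0.04 in mTECs, where that of all genes was 0.17. By limma-voom the interaction of cell type and this contrast called 0 of 10 genes and 0 of 18394 in all. Of all genes 1352 had an unadjusted p under 0.05, and DESeq2 called 5. On simulated counts limma-voom recovered no changed gene in this interaction, so its count of 0 carries no weight.

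In the late phase, D16 to D28, most of the genes were higher than in the early phase, D0 to D12, but not past the threshold. The early cTEC samples include those of D6 on which the list was chosen, so the cTEC values are descriptions with no p. Counts of listed genes called in cTECs are descriptions too. In cTECs 0 of 9 genes were called by limma-voom, against 1.41% of all genes (4310 genes had an unadjusted p under 0.05), and 8 of 9 log2 fold changes were above 0 (52.6% of all genes were below 0), with a median of 1.09 against -0.04 for all genes. *Hnf4g* had 1.63, 6.29, 3.56 and 2.51 FPKM at D16, D20, D24 and D28, and 0.00 to 9.04 (median 0.60) in the early samples. Its log2 fold change was 2.79 (SE 0.73), and 2.54 without the libraries that stood apart, which include the early sample of 9.04 and the late sample of 6.29. *Aoc1* had 9.2, 7.71, 20.29 and 9.1 FPKM late against a median of 6.19 early, with a log2 fold change of 1.35 (SE 0.40), and 1.58 without those libraries. *Cdhr5* had 6.79, 40.48, 12.19 and 5.55 FPKM late, and its 1.25 (SE 0.38) became 0.88 without the libraries that stood apart. *Gp2* had 74.12, 24.48, 61.99 and 68.57 FPKM late against an early median of 21.80, with a log2 fold change of 1.09 (SE 0.37) and 1.47 without those libraries. *Vil1* gave 1.5 (SE 0.66), or 1.33 without them, and 0 of the 9 genes separated the phases without overlap, as 0.442% of all genes did on the higher side. edgeR and DESeq2 also called 0 of the 9 genes, with 45 and 95 of 15845 genes called in all. Voom with sample quality weights called *Hnf4g* and *Gp2*, and 1045 of the 15845 genes.

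Beside these, 3 genes of the context lists were called higher in late cTECs: *Clca1* (3.86), *Muc13* (3.45) and *Lgals4* (2.29), which encodes an intestinal lectin. *Aire* (2.07) and *Cd80* (3.08) were called too, 2 of 9 mTEC markers. Of the 9 mTEC markers, 4 were below 0, and the list's median was 0.01. Their summed FPKM was 4461.6 to 7323.1 (median 6366.6) in late cTEC samples and 3687.5 to 8018.6 (median 6117.3) in early ones. Summed cTEC markers had a median of 4939.1 late (4079.2 to 12018.9) and 9966.0 early (2727.9 to 12047.3), with 6 of 7 below 0 and 0 called. Summed fibroblast markers had a median of 497.3 late (260.5 to 631.6) and 185.9 early (61.9 to 328.2), with 4 of 4 above 0 and 1 called. What part transcripts of mTECs or other cells had in the late cTEC values was not tested.

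In mTECs 0 of 10 genes were called between the phases by limma-voom, against 0.0620% of all genes (3541 genes had an unadjusted p under 0.05), and 9 of 10 log2 fold changes were above 0 (51.2% of all genes were below 0), with a median of 0.42 against -0.01. *Aoc1* had 55.08, 45.0, 43.86 and 38.43 FPKM from D16 to D28, against 5.27 to 41.84 (median 22.87) in the early samples, and a log2 fold change of 0.93 (SE 0.26, adjusted p = 0.057 by limma-voom). *Cdhr2* had 4.39, 6.91, 4.5 and 2.01 FPKM late against an early median of 2.07, at 0.81 (SE 0.25). Without the D28 sample, the lowest of these, it was called, at 1.11 with an adjusted p of 0.00955 by limma-voom. *Cdhr5* gave 0.76 (SE 0.23) and *Hnf4g* 1.55 (SE 0.63), and edgeR and DESeq2 also called 0 of the 10 genes. Without the libraries that stood apart, *Aoc1* gave 0.97, *Cdhr2* 0.84, *Cdhr5* 0.825 and *Hnf4g* 1.21. *Fcgbp* (0.04, SE 0.13) and *Spib* (0.02, SE 0.14) differed by less than their SE. Of the context lists 0 genes were called. Above 0 were 16 of 18 enterocyte values (median 0.66) and 9 of 12 microfold values (median 0.36). Macrophage markers were above 0 in 6 of 7 (median 0.8) and cTEC markers below 0 in 6 of 7 (median -1.05), with 0 called. Their part in the late mTEC values was not tested.

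The genes most like each of the 10 were sought by the Pearson correlation of log2(FPKM + 0.5) over the 28 samples of a cell type, as a description, since these points share libraries and depth. In mTECs *Aoc1* was most like *Reg3g*, an antimicrobial lectin (r = 0.879), *Lyz1*, the lysozyme of Paneth cells (0.877), and *Anks4b* of the microvillus tip-link complex (0.872). The gene most like *Cdhr2* was its partner *Cdhr5* (0.778), and *Cdhr5* was most like *Calm4* (0.843), *Apobr* (0.819) and *Ccl20* (0.818). *Gp2* was most like *Cyp2a5* (0.857), *Spib* most like *Rap1gap* (0.799), *Fcgbp* most like *Tpm2* (0.828) and *Tnfaip2* most like *Cdc42se2* (0.703). *Hnf4a* was most like *Cd2* (0.897), *Hnf4g* most like *Ly6c2* (0.851) and *Vil1* most like *Pecam1* (0.793). In cTECs *Aoc1* was most like *Csn2*, the casein gene (0.845), *Vil1* like *Fas* (0.775), *Oit1* (0.768) and *Muc13* (0.763), *Spib* like *Lrmp* (0.824) and *Avil* (0.797), and *Gp2* like *F3* (0.743). *Cdhr2* was most like *Tnfrsf8* (0.876), *Cdhr5* like *Stat6* (0.839), *Hnf4g* like *Mga* (0.811), *Fcgbp* like *Serpinb1a* (0.776) and *Tnfaip2* like *Rpa1* (0.815).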

How the data were processed

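RNA of cTECs and mTECs sorted by flow cytometry was measured in 56 samples, grouped by cell type and time point from their labels. Per the study's methods and the labels, the authors converted reads with bcl2fastq 2.20, trimmed them with Trimmomatic 0.35, aligned them to GRCm38 with STAR 2.5.1b and quantified genes with RSEM 1.2.28. Expected counts were deposited per sample by the authors, each an unnormalized estimate per gene. The deposited TPM values are scaled by effective length and to a constant total. The deposited FPKM values are scaled by effective length and by fragments per sample, and RSEM derives the effective length of a gene from its mix of isoforms, so FPKM also moves with that mix. The annotation release and strand setting are not given in the sources used here. Symbols and gene coordinates came from GENCODE M21, which matched 50376 of 50600 identifiers.

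Expected counts were rounded and analysed in R 4.3.3 with limma-voom (limma 3.58.1) after TMM scaling (edgeR 4.0.16), keeping genes whose FPKM averaged 0.5 or more over a cell type's 28 samples (over those of either cell type where both were compared). DESeq2 1.42.0 and edgeR's quasi-likelihood test were alternatives. Comparisons were D6 against D-2, D-2 against NPC and late against early in each cell type, mTEC against cTEC with a mean for each cell type and time point, and the interaction with D-2 against NPC. Scripts were tested on simulated counts, where limma-voom recovered no changed gene in the interaction, so its count of 0 carries no weight, and made more false calls than its threshold allows in the late phase comparison of mTECs. Time points with 1 sample have no error of their own. Depth ranged from 4561208 to 108547384 counts per sample, which limits precision most for *Hnf4a* and the other low genes.

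Genes named are the 10 listed genes, for each the most correlated tested genes (3 were computed per gene), and from each context list the called genes, at most 4 by size, of which some are not reported here. The genes, the context lists and the markers were chosen with earlier results of these data known. Samples were not treated as paired. Upstream windows came from RefSeq on GRCm38.p6 for 9 of the 10 genes. Python 3.11.15 with NumPy 2.4.6, pandas 2.3.3, SciPy 1.17.1 and Matplotlib 3.10.9 did the rest. Alternatives also covered limma on log2(FPKM + 0.5) and log2(FPKM + 0.1), no TMM, no filter, quality weights, and leaving out each replicate. Leaving out the libraries that stood apart was chosen after seeing the data.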

Additional observations from a re-analysis of the deposited data

Results flagged for a closer look

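*Aoc1* in late cTECs had 1 sample apart from the others. The D24 sample held 20.29 FPKM, while the D16, D20 and D28 samples held 7.71 to 9.2, and the gap was 0.882 of the range of the 4 samples, above the 95% critical value of Dixon's test for this number. In CPM the D24 sample held 43.99 against 17.6 to 23.68, a gap of 0.77 of the range, which is below that critical value. Each of these samples is the only one of its time point, so the difference cannot be set against replicates of that day. 20 groups of 4 samples were examined this way in FPKM, and chance alone gives about 1 in 20. *Vil1* in late mTECs was not flagged in FPKM, but its CPM gap was 0.941 of the range, above that critical value. Its D16 sample held 36.391 CPM against 15.966 to 17.165 in the other late samples. Leaving out single late samples gave 0.237 to 0.697 for its late mTEC log2 fold change of 0.58.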

How the results depend on the processing

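Of 1506 values computed for 77 results under other settings, 1408 kept their direction and their side of the threshold. Counts of listed genes called moved as follows. In mTECs at D6 against D-2 the count of 0 became 3 by DESeq2, which called 464 of all genes, and 2 with quality weights, which called 286. In late cTECs it became 2 with quality weights, and in late mTECs it ran from 0 to 1 when single samples were left out. For mTECs against cTECs the 4 called, with *Aoc1* among them as a description, became 1 on NPC samples alone, and 3 to 4 when single samples were left out. *Tnfaip2* lost its call in 13 of 36 such fits, and on NPC alone gave 1.23 (adjusted p = 0.073 by limma-voom).

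Among all genes, the 213 called in cTECs at D6 against D-2 became 760 by DESeq2, 395 without the filter and 5 by limma on log2 FPKM, and 60 to 135 when single samples were left out. The 53 called in mTECs ranged from 0 to 464, the 223 of late cTECs from 0 (D12 counted as late) to 1045, the 11 of late mTECs from 1 to 159, and the 3131 of mTECs against cTECs from 84 (NPC alone) to 3226. Replicate numbers, which are not the numbers in the titles for some samples, gave no sign of pairing. Deviations from group means in cTEC and mTEC samples of the same replicate number correlated at -0.081 to 0.28 (median 0.028, 18 pairs). Samples that share a title number gave -0.14 to 0.126 (median 0.025, 16 pairs). With the replicate number as a block, *Tnfaip2* lost its call in mTECs against cTECs at 0.98, and the counts were 145 in mTECs and 195 in cTECs at D6 and 2853 for mTECs against cTECs, and a block on the sample numbers in the titles gave 2712. The causes were not tested.

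These log2 fold changes and correlations changed sign. By limma on FPKM (pseudocounts 0.5 and 0.1), *Tnfaip2* gave 0.65 and 0.67 in cTECs at D-2 against NPC, -0.20 in mTECs, 0.078 and 0.083 in late cTECs, and 0.85 and 0.87 in the interaction, *Cdhr5* gave -0.21 and -0.22 in mTECs at D-2 against NPC, *Hnf4a* gave 0.37 and 0.54 in late mTECs, and *Cdhr2* gave -0.016 in mTECs against cTECs (0.5 only). In mTECs at D-2 against NPC, *Cdhr5* gave -0.002 by DESeq2, -0.026 without TMM and -0.089 with quality weights, and *Tnfaip2* gave -0.028 by edgeR, -0.04 by DESeq2, -0.019 without TMM, -0.067 with quality weights and -0.013 with the replicate block. With quality weights, late cTECs gave -0.015 for *Cdhr2*, -0.23 for *Fcgbp* and 0.039 for *Tnfaip2*, late mTECs gave -0.012 for *Spib*, mTECs against cTECs gave -0.19 for *Cdhr2*, and the interaction gave 0.015 for *Tnfaip2*. Without the filter *Fcgbp* gave -0.013 in late cTECs and -0.035 in late mTECs. With D12 as late, *Tnfaip2* gave 0.056 in cTECs, and *Hnf4a* 0.93 and *Gp2* -0.09 in mTECs, and without D12 *Hnf4a* gave 0.18. Without the libraries that stood apart, *Tnfaip2* gave 0.27 in late cTECs, *Cdhr2* gave -0.18 in mTECs against cTECs, and *Hnf4g* with *Vil1* gave r = 0.038. For mTECs against cTECs *Cdhr2* gave -0.14 by edgeR and -0.039 by DESeq2, and on NPC alone *Hnf4a* gave -1.22 and *Hnf4g* -2.37. Within time points r was -0.132 for *Hnf4a* with *Cdhr2*, 0.406 for *Spib* with *Gp2*, -0.071 for *Spib* with *Fcgbp* and -0.628 for *Vil1* with *Cdhr2*.

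When single samples were left out, values that changed sign ran from -0.32 to 0.12 for *Tnfaip2* in mTECs at D6, -0.37 to 0.035 for *Fcgbp* and -0.022 to 0.46 for *Spib* in cTECs at D-2, and -0.20 to 0.28 for *Cdhr5*, -0.24 to 0.29 for *Aoc1* and -0.16 to 0.21 for *Tnfaip2* in mTECs at D-2. They ran from -0.38 to 0.26 for *Tnfaip2* in late cTECs, -1.13 to 1.45 for *Hnf4a*, -0.09 to 0.20 for *Fcgbp* and -0.035 to 0.10 for *Spib* in late mTECs, and -0.16 to 0.50 for *Cdhr2* in mTECs against cTECs. Depth limits *Hnf4a* most, with 24 counts in the median mTEC sample.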

Other observations

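Relations between listed genes in mTECs were examined in 12 pairs over 28 samples, with log2(FPKM + 0.5) and two-sided permutation tests, and 0 pairs passed the Benjamini-Hochberg correction. The strongest was *Hnf4g* with *Cdhr2*, at r = 0.439 (permutation p = 0.020, adjusted 0.17) and rho = 0.47 (permutation p = 0.013, adjusted 0.15). It was 0.469 without the 2 samples farthest from the median of *Hnf4g*, 0.517 without the libraries that stood apart, and 0.162 in deviations from time point means over 18 samples. *Hnf4a* with *Hnf4g* gave r = 0.408 (permutation p = 0.029, adjusted 0.17) and rho = 0.365 (permutation p = 0.056, adjusted 0.22), and 0.266 within time points. *Spib* with *Fcgbp* gave r = 0.385 (permutation p = 0.043, adjusted 0.17) and rho = 0.384 (permutation p = 0.044, adjusted 0.22), and -0.071 within time points. The microfold pairs gave r of -0.162 for *Spib* with *Gp2*, 0.167 for *Spib* with *Tnfaip2* and 0.254 for *Gp2* with *Tnfaip2*. *Vil1* with *Cdhr2*, both of microvilli, gave r = 0.174.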
